A study of Mus musculus with 16 samples.

Results

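Long domains of H3K27me3, the trimethylated lysine 27 of histone H3 that Polycomb complexes deposit, were mapped over coding genes of mouse muscle stem cells. H3K27me3 broad peaks of quiescent stem cells (QSC) and, separately, of activated stem cells (ASC) were merged across gaps of up to 3 kb, stretches of at least 100 kb were kept and the stretches of both states were joined. This gave 722 regions from 492 long domains in QSC and 581 in ASC, and the 568 regions that overlapped a protein-coding gene record are described here. The 154 others held no coding gene. All cells came from skeletal muscle of C57BL/6 mice, and the 16 samples comprised 2 replicates of each mark in each state, every one with its own input. H3K4me3, the mark of active or poised promoters, was the other mark. The states are quiescent and activated as the sample names give them; how the cells were isolated or activated, and whether replicates were separate animals, is not given in the sources used here.

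A single peak list per state and mark was deposited for both replicates together. No value below therefore has a replicate check, no test between the states was possible, and read depth per library is unknown. Because the peak lists themselves chose the domains, H3K27me3 lengths and coverage are descriptions. Holding a coding gene was also part of the choice, whereas H3K4me3 and the identity of the gene were not. The 9 muscle stem cell markers examined, among them Pax7, Myf5 and Calcr, carried H3K4me3 at a start in both states, and no start of these 9 lay in a long domain. H3K4me3 was called at 2 of 6 endothelial markers in QSC and 3 of 6 in ASC, at 0 of 5 immune markers in either state, at 0 and 2 of 4 fibro-adipogenic markers, at 3 and 1 of 4 pericyte markers, and at 1 of 3 glial markers in both. On longer lists of the same cell types the calls were 5 and 6 of 14 endothelial, 0 and 0 of 12 immune, 3 and 6 of 10 fibro-adipogenic, 7 and 5 of 9 pericyte and smooth muscle, and 5 and 5 of 9 glial markers. Whether other cells contributed to the domains was not tested.

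H3K27me3 is written by the EZH1 and EZH2 subunits of Polycomb repressive complex 2 and read by chromobox proteins of Polycomb repressive complex 1. It is known to hold regulators of other lineages silent, and broad blankets of it cover Hox clusters in many cell types. Promoters that carry H3K4me3 and H3K27me3 together are called bivalent and are often genes of development.

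The bases just before a gene start show how unlike the sequences under these domains can be. For 5 genes the results turn on, the 250 bases before the start are given 5′ to 3′ on the strand of the gene, from RefSeq (build GRCm38.p6, the same coordinates as mm10), with each CG dinucleotide in capitals. Hmga2 had the highest H3K4me3 fold in ASC among genes in the domains. Parvb had the highest fold among genes marked in ASC only that have an entry in the promoter table, and Syt3 the highest among those marked in QSC only. The last 2 were ranked by CG over the 300 bases of the entry, among genes in a domain with an entry and without H3K4me3. Hoxd13 had the most among such Hox genes (10 of 17 had an entry), and Krt31 the fewest among such keratin genes. They lie at chr10:120476470-120476719 (Hmga2, minus strand), chr15:84231793-84232042 (Parvb, plus strand), chr7:44383876-44384125 (Syt3, plus strand), chr2:74667975-74668224 (Hoxd13, plus strand) and chr11:100050552-100050801 (Krt31, minus strand).
Hmga2: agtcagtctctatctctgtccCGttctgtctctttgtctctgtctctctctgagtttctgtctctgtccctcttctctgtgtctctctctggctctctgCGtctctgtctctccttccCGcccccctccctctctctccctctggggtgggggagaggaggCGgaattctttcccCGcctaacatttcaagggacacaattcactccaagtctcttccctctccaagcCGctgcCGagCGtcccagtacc
Parvb: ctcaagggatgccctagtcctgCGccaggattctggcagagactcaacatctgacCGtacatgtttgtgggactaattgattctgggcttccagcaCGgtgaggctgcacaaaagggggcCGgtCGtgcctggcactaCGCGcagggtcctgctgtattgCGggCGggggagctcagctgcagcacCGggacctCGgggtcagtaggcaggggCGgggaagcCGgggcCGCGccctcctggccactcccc
Syt3: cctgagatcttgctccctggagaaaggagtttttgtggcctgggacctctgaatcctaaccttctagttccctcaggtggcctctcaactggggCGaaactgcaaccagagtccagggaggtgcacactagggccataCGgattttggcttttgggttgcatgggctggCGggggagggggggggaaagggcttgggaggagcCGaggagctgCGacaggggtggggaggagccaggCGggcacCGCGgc
Hoxd13: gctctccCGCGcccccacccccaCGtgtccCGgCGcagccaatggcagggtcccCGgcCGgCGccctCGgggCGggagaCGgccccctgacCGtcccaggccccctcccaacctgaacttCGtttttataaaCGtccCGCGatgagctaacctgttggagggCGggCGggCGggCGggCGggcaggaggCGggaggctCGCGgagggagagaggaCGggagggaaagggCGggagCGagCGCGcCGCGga
Krt31: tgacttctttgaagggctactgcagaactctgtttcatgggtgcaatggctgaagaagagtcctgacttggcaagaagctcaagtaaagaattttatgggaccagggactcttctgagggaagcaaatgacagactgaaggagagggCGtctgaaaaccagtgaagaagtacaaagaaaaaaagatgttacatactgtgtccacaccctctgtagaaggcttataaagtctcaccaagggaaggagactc
The 250 bases held 31 CG dinucleotides at Hoxd13, 15 at Parvb, 8 at Hmga2, 8 at Syt3 and 1 at Krt31. Hoxd13 had no H3K4me3 peak at its start in either state, and Hmga2, with fewer CG, had one in both. A comparison of CG content over all genes in the domains is void, because the promoter table held an entry for 75.4% of the genes that start in them, under the 80% required.

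The 568 domains spanned 97.1 Mb and had a median length of 144 kb (quartiles 114 and 190 kb). Of these, 129 reached 200 kb, 45 reached 300 kb and 7 reached 500 kb, with the longest at 686 kb. A single coding gene was held by 308 domains, 2 genes by 130, 3 by 66 and 5 or more by 40, up to 18 genes. In all, 1140 coding genes overlapped a domain, which is 5.21% of 21887, and 1020 (4.66%) had a start inside one. Chromosome 2 held 62 domains, chromosome 11 held 52 and chromosome 5 held 44. None lay on the X chromosome, although its lists held 1450 broad peaks in QSC and 950 in ASC, nor on Y. The shortest domains kept were those at Xylt1 (100092 bp), at Hs3st6, Meiob and Hagh (100194 bp) and at Dab1 (100467 bp), and the longest left out were at Kirrel3 (99868 bp), at Cd5l and Fcrl1 (99790 bp) and at Cartpt (99781 bp).

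The mark was nearly continuous in most domains, and its strength per peak was often low. Broad peaks covered 82.8% of domain bases in QSC and 89.1% in ASC, with medians per domain of 87.4% and 91.5%. Peaks with a q-value of at most 0.05 covered 41.6% in QSC and 58.3% in ASC, and 109 domains in QSC and 47 in ASC had no base under such a peak. The H3K27me3 narrow peaks covered 22.3% and 32.4%. At the starts in the domains, broad peaks covered at least 500 bp of the window 1 kb either side for 915 of 1020 genes in QSC (89.7%) and 988 in ASC (96.9%), against 24.9% and 30% of all coding genes.

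**Figure D1:**
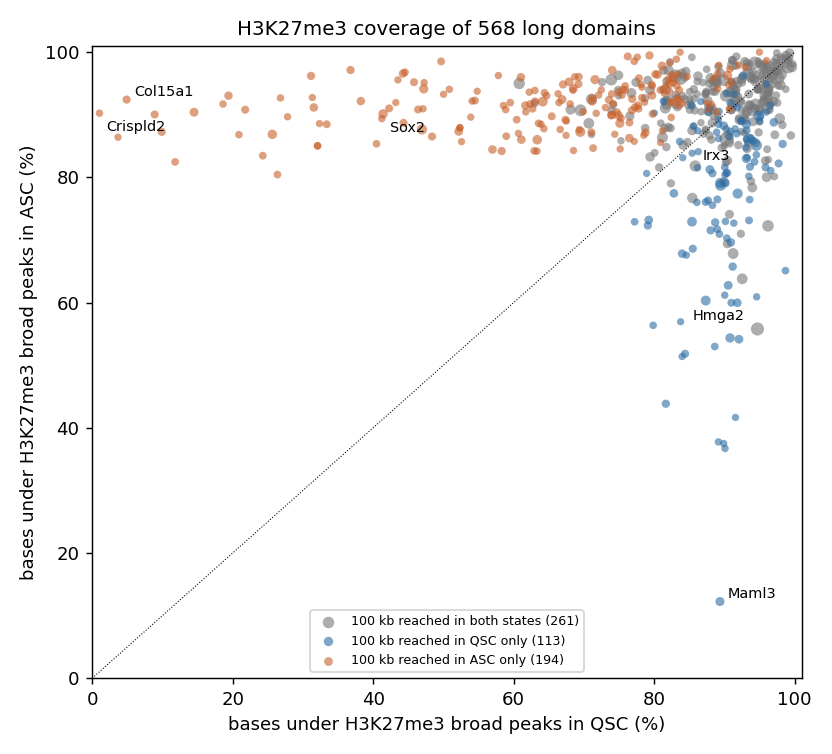
Each point is 1 of the 568 long domains, placed by the percentage of its bases under H3K27me3 broad peaks in QSC (horizontal axis) and in ASC (vertical axis), and coloured by the state or states in which a 100 kb domain was reached, with larger points for longer domains. Most points sit near the upper right corner; Hmga2 at 94.7% and 55.8% and Maml3 at 89.4% and 12.3% lie far below the diagonal, and Crispld2 at 1.04% and 90.3% lies far above it.

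The Hoxb cluster made the longest domain. It ran over chr11:96077275-96762977 for 686 kb, took in Hoxb1 to Hoxb9 and Hoxb13 together with Calcoco2, Ttll6 and Skap1, and was covered over 98.5% of its bases in both states. H3K4me3 narrow peaks numbered 0 in it in QSC and 0 in ASC. The next domain, of 668 kb on chromosome 2, held Chst1 (a sulfotransferase), Syt13, Prdm11 and Trp53i11, and had 4 and 5 H3K4me3 peaks. Cadm1, a cell adhesion molecule, lay in a domain of 577 kb covered over 91.3% in QSC and 93.6% in ASC.

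Hmga2 encodes an AT-hook chromatin protein known from embryonic growth and stem cell renewal, and its domain was the longest that differed widely between the states. The domain ran over chr10:120235205-120775984 for 541 kb. Broad peaks covered 512 kb of it in QSC (94.7%) and 302 kb in ASC (55.8%), and the longest unbroken stretch after merging measured 540750 bp in quiescent and 122735 bp in activated cells. The gene itself, 115 kb long on the minus strand, was covered over 97.3% in QSC and 10.2% in ASC. H3K4me3 was present at its start in both lists, the QSC peak 2275 bp wide with a fold over background of 6.05, the ASC peak 6502 bp wide with a fold of 46.4. The 46.4 was the highest fold of all H3K4me3 peaks at gene starts in the domains. Folds are the authors' values for each peak and rank peaks within a list; across the domains H3K4me3 covered 2870 bp of the Hmga2 domain in QSC and 10443 bp in ASC.

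**Figure D2:**
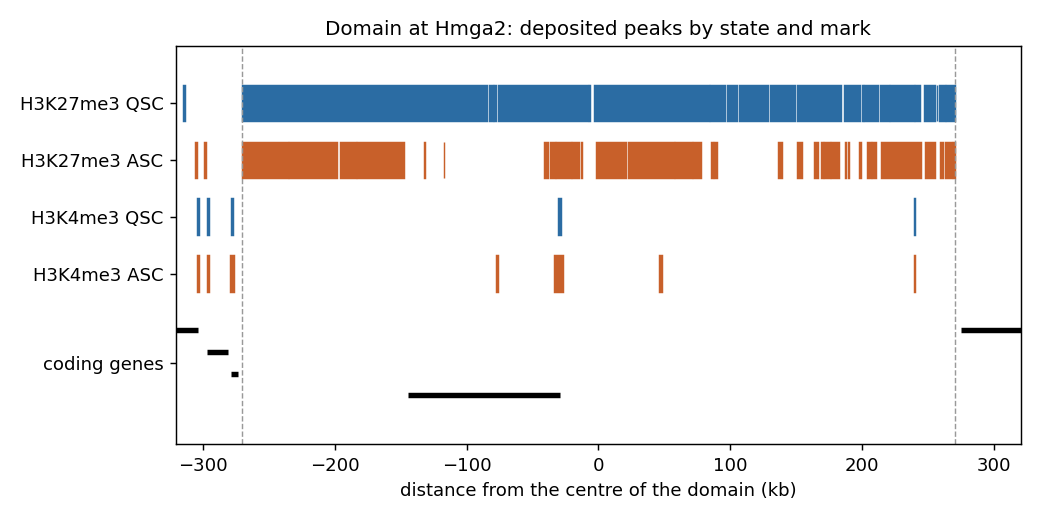
The domain at Hmga2, drawn by distance from its centre in kb, with H3K27me3 broad peaks and H3K4me3 narrow peaks of QSC and ASC as bars, coding gene records below and dashed lines at the domain edges; Hmga2 is the record left of the centre. The H3K27me3 bars fill the domain in QSC, and in ASC they leave the Hmga2 record nearly bare.

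The other long domains held genes of neural, mesodermal and signalling function and changed less. The homeobox gene Msx2 sat in 537 kb covered over 83.1% in QSC and 96.2% in ASC, and Ntm (neurotrimin, a neural adhesion molecule whose start lay outside) in 527 kb covered over 83.8% and 95.8%. Cbln1 and Zfp423, a zinc finger regulator, shared 523 kb covered over 94.1% and 90.8%. Foxb1, a forkhead factor, lay in 484 kb covered over 94.3% and 98.3%. Peli2, a ubiquitin ligase of immune signalling, lay in 475 kb, and Ncoa3 with the sulfatase gene Sulf2 in 459 kb, covered over 96.1% in QSC and 91.1% in ASC and over 99.1% and 97.6%. Their H3K4me3 peaks numbered from 0 to 2 per state at Msx2, Ntm, Foxb1, Peli2 and Sulf2.

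A length of 100 kb was reached in both states by 261 domains, in QSC only by 113 and in ASC only by 194. Most domains that missed this length in a state kept a long stretch of the mark there. Among QSC-only domains the median coverage was 90.1% in QSC and 81.5% in ASC, and 87 of 113 still had a stretch of at least 50 kb in ASC (median longest stretch 75.4 kb). Among ASC-only domains it was 69.4% in QSC and 92.0% in ASC, and 120 of 194 still had such a stretch in QSC (median 61.2 kb). Domains reached in both were longer, with a median of 171 kb against 126 kb and 124 kb. The broad lists covered 455.2 Mb in QSC and 516.6 Mb in ASC. With covered bases made equal, 125 domains were reached in QSC only, 146 in ASC only and 251 in both.

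Genes of the longest QSC-only domains included Irx3, a homeobox regulator, and the neural genes Gad1 and Lmx1a. The Irx3 domain, of 362 kb, was covered over 94.6% in QSC and 85.1% in ASC. Coverage was 94.9% and 89.8% at Gad1 and 93.4% and 86.1% at Lmx1a. These 3 came near the length limit in ASC, with longest stretches of 98678 bp at Irx3, 91482 bp at Gad1 and 99688 bp at Lmx1a. Brinp2 and Astn1, both neural genes, shared 231 kb covered over 90.8% in QSC and 54.4% in ASC. Genes of the longest ASC-only domains included Sox2, a regulator of pluripotent and neural cells, in 235 kb covered over 41.4% in QSC and 90.1% in ASC. Erc2, a presynaptic gene whose start lay outside, had 286 kb covered over 47.0% and 87.7%. A cluster of 11 mast cell protease and granzyme genes, 235 kb on chromosome 14, was covered over 25.6% and 86.9%.

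The widest changes in coverage, picked after their values were seen, lay outside these. Maml3, a Notch coactivator, had 211 kb covered over 89.4% in QSC and 12.3% in ASC, with no H3K4me3 peak in either state. The start of Maml3 lay outside this domain, so the absence of a peak does not describe its promoter. Crispld2, a secreted protein gene, had 110 kb covered over 1.04% in QSC and 90.3% in ASC, and its start carried an H3K4me3 peak in QSC only. Col15a1, a basement membrane collagen, shared 152 kb with Galnt12, covered over 4.90% and 92.4%. The AMPA receptor gene Gria1, whose start lay outside, had 154 kb covered over 9.91% and 87.3%. In neither state was a base of that domain under a peak with a q-value of at most 0.05.

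H3K4me3 narrow peaks were sparse in the domains in both states and less sparse in ASC. A narrow peak lay in 217 of 568 domains in QSC (38.2%) and in 291 in ASC (51.2%). Of 100 kb windows of the autosomes, 31.7% and 33.7% held one. The domains are longer than these windows and were chosen to hold a coding gene, which the windows were not. Both states had a peak in 201 domains, QSC only in 16, ASC only in 90 and neither in 261. Per Mb the domains held 3.27 peaks in QSC and 4.81 in ASC, and the rest of the autosomes 5.76 and 6.31. The 154 long regions without a coding gene held 0.812 and 1.34 peaks per Mb, but the rule itself parted them from the domains by gene content. The order of the states was the reverse with the broad H3K4me3 lists, of 184538 peaks in QSC and 29297 in ASC, which touched 99.6% of the domains in QSC and 81.9% in ASC.

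At gene starts, a call was a narrow peak within 1 kb of a start. Of the 1020 genes that start in a domain, 198 were called in QSC (19.4%, exact 95% binomial interval 17.0 to 22.0) and 278 in ASC (27.3%, 24.5 to 30.1). Over all coding genes the shares were 54.4% in QSC and 57% in ASC. Among 14700 genes outside the domains with no H3K27me3 at the start they were 66.3% and 67.4%, and among 6047 outside with it, 31.3% and 36.4%. The genes inside thus had the lower shares in both states, also beside outside genes with H3K27me3 at the start; this difference was not tested. Of all 1140 genes that overlap a domain, the 120 that start outside included, 278 were called in QSC (24.4%) and 360 in ASC (31.6%). Neighbouring genes of a cluster share a domain and are not independent, and the intervals cover counting error only.

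**Figure D3:**
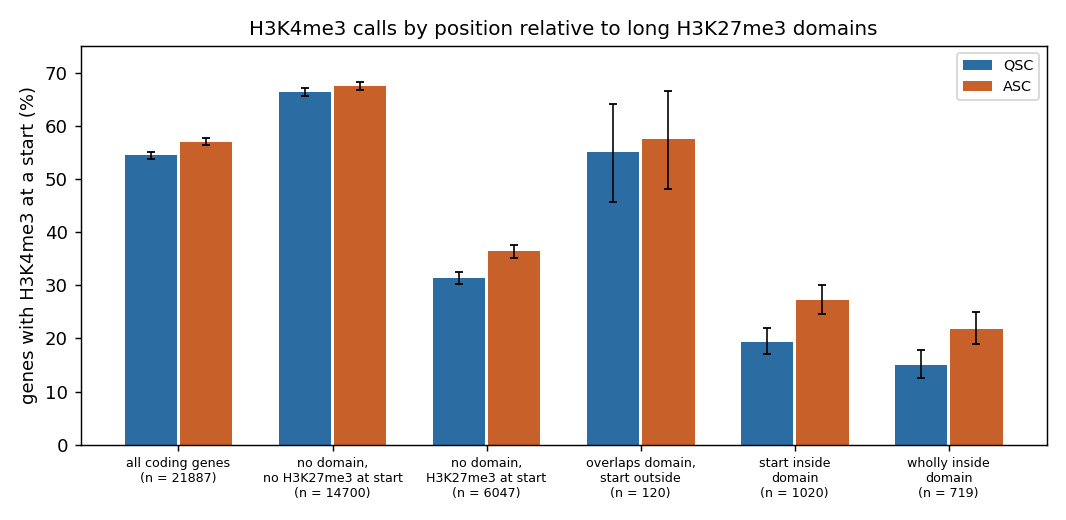
Percentage of coding genes with an H3K4me3 narrow peak within 1 kb of a start in QSC and ASC, for groups of genes by their place relative to the long domains and by H3K27me3 at the start; whiskers are exact 95% binomial intervals. Of the groups drawn, genes that start in a domain are lowest but for those wholly inside one, at 19.4% in QSC and 27.3% in ASC against 54.4% and 57% of all coding genes.

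The H3K4me3 peaks inside were short, weak and mostly laid over H3K27me3. Peaks with their midpoint in a domain numbered 310 in QSC and 455 in ASC, with median widths of 1038 and 1155 bp and median folds of 5.81 and 7.16, against 1524 and 2062 bp and 10.4 and 16.8 for peaks elsewhere. The midpoint lay on a broad H3K27me3 peak of the same state for 67.1% of them in QSC and 84.6% in ASC, against 5.66% and 13.7% elsewhere. Coverage of the domain bases themselves was 82.8% and 89.1%, so the peaks lay on H3K27me3 less often than a domain base did.

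The state difference in narrow peaks was mostly one-way. Of the genes that start in a domain, 184 were called in both states, 94 in ASC only (9.22%) and 14 in QSC only (1.37%), against 53.7%, 3.29% and 0.736% of all coding genes. With equal numbers of peaks in both lists the single-state counts were 60 in ASC only (5.88%, against 2.28% of all coding genes) and 19 in QSC only (1.86% against 1.43%). With the broad H3K4me3 lists they were 72 (7.06% against 2.40%) and 121 (11.9% against 8.06%). Among the 184, the peak was longer in ASC at 137, with a median log2 ratio of widths of 0.35, against 0.54 over all coding genes marked in both states. Domains reached in ASC only had the lowest shares called, 13.6% in QSC and 17.3% in ASC, against 21.1% and 29.4% for domains of both states and 28.2% and 44.3% for those of QSC only. The 26 ASC-only genes of QSC-only domains came from 149 genes, the 20 of ASC-only domains from 353.

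Genes marked in ASC only were led, by fold, by Dok1 (a docking protein of tyrosine kinase signalling, 26.0) and Parvb (beta-parvin, a focal adhesion protein, 24.9). The Dok1 peak was 3840 bp wide and only 482 bp of it lay in the domain. Also among the 10 highest were Fli1, an ETS factor of blood and endothelium, at 11.4, and Nrn1, the neuronal growth protein neuritin, at 11.02. Ephb2 (an ephrin receptor), Fjx1, Igsf11, the sodium channel gene Scn8a and the homeobox gene Gbx2 followed at 9.21 to 9.93. In the Nrn1 domain H3K4me3 covered 0 bp in quiescent cells and 8151 bp in ASC. The Nrn1 record stayed covered by H3K27me3 over 100% in both. The Parvb record was covered over 94.6% in QSC and 5.39% in ASC. These folds sat well below those at Hmga2.

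Genes marked in QSC only had weak peaks. Syt3 (synaptotagmin 3) led at a fold of 7.02, followed by Sgpp2 (a sphingosine 1-phosphate phosphatase, 5.33), Cxcl14 (a chemokine, 5.26), Ccdc184 (4.597), Nefm (a neurofilament subunit, 4.22) and Rxrg (a retinoid X receptor, 4.22). Kndc1, Pax9, Crispld2 and Jakmip3 had folds of 3.63 to 4.05. The highest of these lay under the median fold of 11.9 at all coding starts called in QSC. H3K4me3 in the domain of Cxcl14 covered 1608 bp in QSC against 0 bp in ASC, and in that of Nefm and Nefl 1547 bp and 0 bp.

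In QSC the highest H3K4me3 folds at starts in the domains were at Camk2n1 (an inhibitor of calmodulin kinase, 22.0), Dusp8 (a phosphatase of MAP kinases, 19.9) and Prdm16 (a zinc finger regulator of brown fat, 16.2). In ASC they were at Hmga2 (46.4), Plxna1 (a semaphorin receptor, 34.6), Trp53i11 (34.3) and Prdm16 (28.4). Below them in ASC came Svil (an actin-binding protein, 26.7), E2f8 (a cell cycle factor, 26.4), Dok1, Cbx2 (a chromobox reader of the mark, 25.5) and Sipa1l1 (25.1). In QSC, Cbx2, Hdgfl3 and the syntaxin gene Stx3 stood at 14.0, and Sipa1l1, the homeobox gene Six2 and Zfp423 at 12.6. Prdm16, Cbx2 and Sipa1l1 were among the 10 highest in both lists.

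H3K27me3 over the gene body was lower in ASC at each of the 10 genes with the highest ASC folds. Of all 1020 genes that start in a domain, it was lower in ASC at 230 (22.55%). Gene-body coverage comes from the lists that chose the domains, so these values, and those by H3K4me3 call below, are descriptions. At Plxna1 broad peaks covered 82.8% of the record in QSC and 0% in ASC, at Trp53i11 78.2% and 0%, at Sipa1l1 69.7% and 34.4%, and at Prdm16 78.3% and 60.9%. At Dok1 it was 42.6% and 0%, at Svil 20.3% and 0%, at Cbx2 17.2% and 0%, and at E2f8 11.7% and 0%. Of the 10 genes with the highest QSC folds, 6 also had lower coverage in ASC, among them Stx3 (53.0% and 23.7%), Six2 (88.9% and 80.8%) and Zfp423 (93.0% and 85.7%), and 4 had higher coverage, among them Camk2n1 (0% and 99.1%), Dusp8 (0% and 39.6%) and Hdgfl3 (1.87% and 5.72%). The records of Dusp8 and Trp53i11 run beyond the edge of their domains.

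Over all genes that start in a domain, a larger share of those with H3K4me3 in ASC than of those without had lower gene-body coverage in ASC, a difference that was not tested. Gene-body coverage was lower in ASC at 39.7% of the 184 genes with H3K4me3 in both states, at 37.2% of the 94 with it in ASC only and at 16.3% of the 728 with it in neither. It was lower by at least 20 percentage points at 10.9%, 9.57% and 2.20% of them, and higher by as much at 11.96%, 10.6% and 22.5%. Large changes at marked genes thus went about as often up as down. Median coverage was 82.1% in QSC and 85.2% in ASC at genes marked in both, 92.3% and 89.8% at those marked in ASC only, and 88.7% and 100% at unmarked genes.

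Domains were also grouped by their change in coverage, which comes from the lists that chose them, with limits picked after the values were seen, so the following ratios are descriptions and support nothing. In 30 domains covered less in ASC by at least 20 points, H3K4me3 bases in ASC were 3.01 times those in QSC (2.85 times without the Hmga2 domain). The ratio was 2.00 in 80 domains lower by 5 to 20 points, 1.76 in 184 within 5 points, 1.58 in 161 higher by 5 to 20 points and 1.25 in 113 higher by at least 20 points. Over all H3K4me3 narrow peaks of the genome it was 1.45. With equal numbers of peaks, an alternative chosen after seeing the data, the ratios ran in the same order from 2.79 to 1.14; with broad H3K4me3 lists every ratio lay below 1, from 0.162 to 0.371, and the highest was in the domains within 5 points.

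H3K4me3 stood just outside the edges. Among 1136 edges, 11.4% in QSC and 11.8% in ASC had a narrow peak in the first 5 kb outside, and 2.73% and 3.697% in the first 5 kb inside. Other bins further inside ranged from 1.06% to 2.55% in QSC and from 2.20% to 3.43% in ASC, and other bins outside from 4.05% to 6.78% and from 4.84% to 8.19%. Gene starts numbered 18.7 per Mb in the first outer bin and 8.80 in the first inner bin. The edge is set by a gap in H3K27me3 of more than 3 kb, so the 2 sides are not alike by construction.

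**Figure D4:**
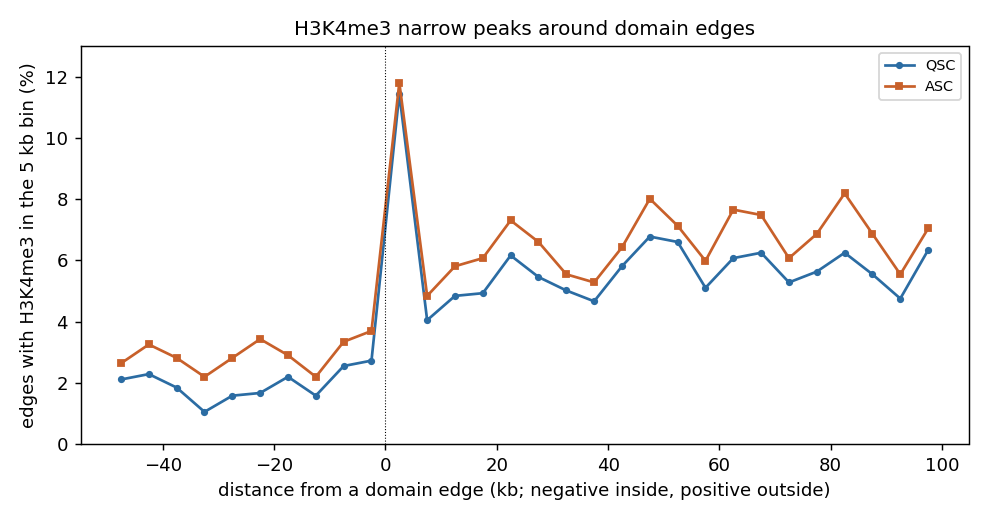
Percentage of 1136 domain edges with an H3K4me3 narrow peak in each 5 kb bin, in QSC and ASC, by distance from the edge in kb (negative inside, positive outside). Both lines peak in the first bin outside, at 11.4% in QSC and 11.8% in ASC, and are lowest inside.

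By gene family, regulators of body pattern and keratins had the largest shares in the domains. Of 39 Hox genes, 26 started in a domain (66.7%), against 4.66% of all coding genes. Of 146 other homeobox genes 60 did, of 51 developmental zinc finger genes 20, of 81 Sox, T-box, forkhead and GATA genes 21, of 38 basic helix-loop-helix genes 9, and of 89 secreted morphogens and growth factors 16. Keratins and their associated proteins, the structural proteins of hair and skin, had 43 of 104, in 7 domains. By contrast, 35 of 1106 olfactory receptor genes (3.16%), 4 of 394 zinc finger genes named Zfp (1.02%), 0 of 57 clustered protocadherins, 0 of 43 myogenic and sarcomere genes and 0 of 20 ubiquitously expressed genes did. Absence from the long domains was not absence of the mark. H3K27me3 covered at least 500 bp at a start of 51 clustered protocadherins in QSC and 50 in ASC. The counts were 8 and 14 for myogenic and sarcomere genes and 0 in both states for ubiquitously expressed genes. Ion channels of neurons and muscle had 25 of 135 (3 of the 25 called for H3K4me3 in QSC and 7 in ASC, against 55 and 64 of all 135), synaptic adhesion and guidance genes 10 of 80, glutamate, GABA and glycine receptors 4 of 52, other transmitter receptors 4 of 77 and other cadherins 3 of 35. Defensins, serpins and kallikreins had 19 of 159, cytochrome P450 and glucuronosyltransferase genes 11 of 111, the immune receptor list 11 of 209, vomeronasal and taste receptors 5 of 397 and extracellular matrix genes 7 of 118.

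**Figure D5:**
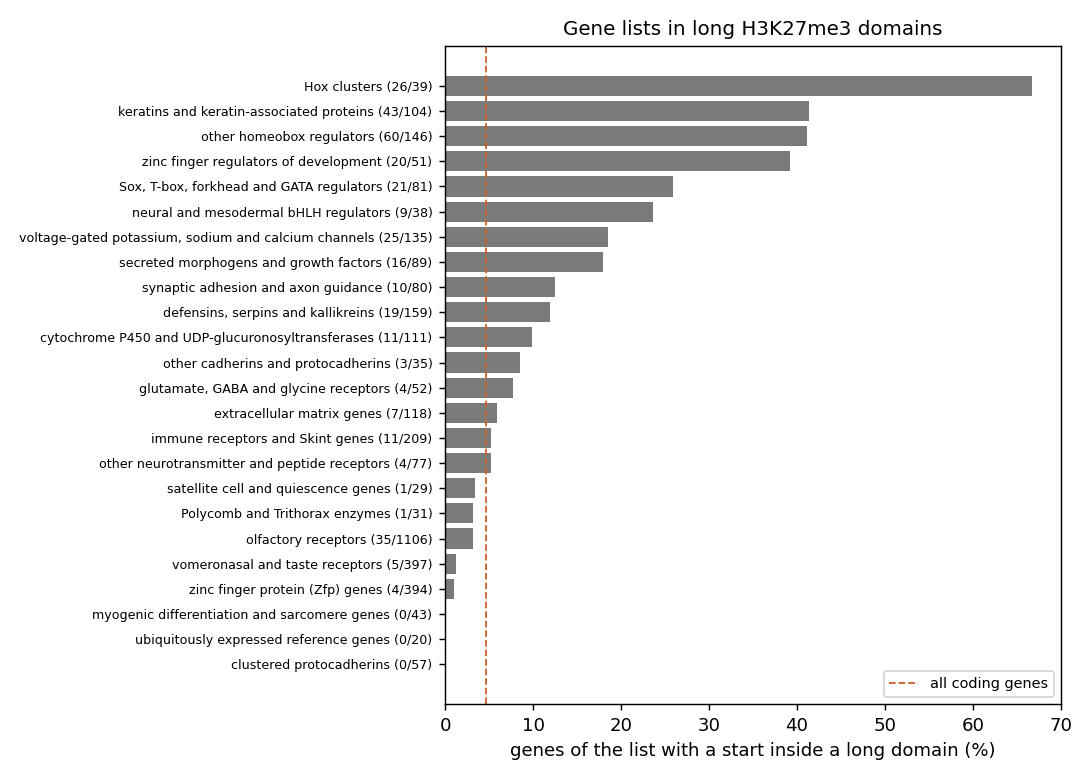
Percentage of each gene list, cell type markers left out, with a start in a long domain, with the counts beside each list name and a line at the 4.66% of all coding genes. Hox genes stand highest at 66.7%, and the lists of protocadherins, myogenic and ubiquitously expressed genes are at 0.

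Hox genes differed in H3K4me3 by cluster. All 10 Hoxb genes lacked a peak in both states. In the Hoxd domain (chr2:74580795-74825319, covered over 99.3% in QSC and 99.9% in ASC), Hoxd3, Hoxd8 and Hoxd9 were marked in both, with folds of 6.53, 4.597 and 7.26 in QSC and 9.57, 6.68 and 7.77 in ASC, and Hoxd1, Hoxd4 and Hoxd10 to Hoxd13 were not. On chromosome 6, Hoxa10, Hoxa11 and Hoxa13 were marked in both states, with QSC folds of 10.4, 6.77 and 7.50, and Hoxa2 in neither. The domain of Hoxa10 to Hoxa13 with Evx1 held 3450 bp of H3K4me3 in QSC and 10769 bp in ASC. Hoxc12 and Hoxc13 had a call in ASC only, at folds of 6.14 and 6.68. Neither has a listed start, so the call could lie at either end of the record. Their domain held 4 H3K4me3 peaks over 8895 bp in QSC and 5 over 14629 bp in ASC.

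Other developmental genes were often marked in ASC only. Among the 60 homeobox genes, calls numbered 17 in QSC against 28 for ASC. The 12 with a call only in activated cells were Barhl2, Dlx2, Gbx2, Hmx1, Lhx1, Lhx8, Lmx1a, Msx2, Onecut2, Pou3f3, Vax1 and Vax2, mostly regulators of neural, limb and eye development, and Pax9 was the one called in QSC only. Of the 20 zinc finger genes 6 and 12 were called, with Ebf1, Ebf2, Egr4, Sp8, Tfap2a and Zic5 in ASC only. Of the Sox, T-box, forkhead and GATA genes 8 and 12 were called, with Foxd1, Foxi3, Sox2 and Sox21 in ASC only. Morphogens gave 3 and 5, with Bmp7 and Fgf5 in ASC only, and the basic helix-loop-helix list 1 in each state, Twist2. Pooled after their values were seen, these 6 lists had 152 genes that start in a domain, with 42 called in QSC (27.6%), 67 in ASC (44.1%) and 26 in ASC only (17.1%). The other 868 genes gave 17.97%, 24.3% and 7.83%, and developmental genes of the same lists with no domain gave 49.7%, 57.6% and 9.31%.

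The 113 domains that held such a developmental gene were longer, with a median of 165 kb against 138 kb for the rest, and 69.9% of them reached 100 kb in both states against 40.0%. An H3K4me3 peak lay in 52.2% of them in QSC and 69.0% in ASC, against 34.7% and 46.8%.

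Several domains dense in clustered genes of skin, secretion and defence held no H3K4me3 peak. No keratin or keratin-associated gene of the 43 was called in either state, but the mark was rare over the whole list too, with 0 of all 104 called in QSC and 2 in ASC. The 140 kb domain on chromosome 11 with 18 coding genes, from Krt40 through the Krtap genes, had the most genes, and it was covered over 71.2% in QSC and 92.7% in ASC. Wfdc and Svs genes, which encode protease inhibitors and seminal vesicle proteins, filled a 255 kb domain with 14 genes and a 221 kb one with 14. The protease and granzyme cluster, Krt31 to Krt36 with their neighbours (11 genes, 175 kb), Krt1, Krt2 and the Krt71 to Krt79 group (10 genes, 253 kb), a group of 9 beta-defensins (158 kb) and one of olfactory receptors with Fam183b (9 genes, 125 kb) also had no peak in either state. Of the 35 olfactory receptor genes, 0 had a call in QSC and 1 in ASC (1 and 2 of all 1106), and of the 11 genes of the immune list 0 in both (33 and 37 of all 209). Other such clusters did hold a peak: the kallikrein domain of 6 genes had 1 in each state, the domain of Slurp1, Ly6d and 9 more genes 1 in each, and that of Krtap5-2, Krtap5-3 and Dusp8 1 in QSC and 2 in ASC.

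A few genes of muscle, vessel and Polycomb biology lay in domains. Pax3, the paralog of Pax7 in embryonic muscle precursors, was the one gene of 29 on the satellite cell list, in 182 kb covered over 94.0% in QSC and 96.8% in ASC, and its start carried H3K4me3 at folds of 8.71 and 8.13. Cbx2 was the one of 31 Polycomb and Trithorax genes. Among endothelial genes Kdr and Flt1, the receptors of vascular endothelial growth factor, were held and were marked at the start in both states, Kdr at 5.34 and 7.41 and Flt1 at 4.36 and 5.78. No start of 10 fibro-adipogenic or 9 glial markers lay in a domain. The T cell gene Cd3e and the pericyte gene Pdgfrb were also in domains, the latter covered over 43.5% in QSC and 95.6% in ASC.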

How the data were processed

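H3K4me3 and H3K27me3 were profiled by ChIPmentation, per the labels' protocols: antibody-bound chromatin from sonicated nuclei was tagmented and sequenced in pairs. The submitters' processing notes list MACS2 2.1.1, bedtools 2.26.0, Bowtie2 2.3.2, SAMtools 1.3, Picard 2.9.2, Trimmomatic 0.36 and bcl2fastq 2.19 with build mm10, and the settings used are not given there. The authors deposited 8 peak lists, a narrow and a broad one per state and mark, each named by the labels of both replicates and treated as pooled. The fold of a peak is a ratio over background, and the deposited −log10 p-value and −log10 q-value are the authors' own, as is the display score, which was not used. The signal tracks were not analysed here. Deposited peak positions were converted to count from 1.

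Merging, coverage and overlaps were computed in Python 3.11.15 (numpy 2.4.6, pandas 2.3.3) and tested on simulated data. Gene records came from RefSeq GRCm38.p6. A start was any listed in its promoter table, and both ends of the record for genes without an entry. An H3K4me3 call was a narrow peak overlapping the window of 1 kb either side of a start by at least 1 bp; for genes that start inside a domain only the starts inside were used. Shares have exact (Clopper-Pearson) 95% intervals. No p-value was computed, since each state has 1 list. The domains, the 29 gene lists (all symbols matched) and the rules were chosen with earlier results of these data known. Genes were named by rule: those of the 10 longest domains, of the 10 longest reached in a single state, the 10 with the highest H3K4me3 fold per state and among single-state calls, those of 3 regions on each side of the length limit, and list members; provisional symbols were counted and not named, and a few genes that meet the rule are not reported here. Members of the gene lists given as examples, the genes of gene-rich domains and the genes with the widest change in coverage were picked with their values in view. The alternatives tried were other gaps, lengths, peak thresholds, lists, windows and overlaps.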

Additional observations from a re-analysis of the deposited data

How the results depend on the processing

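No paired analysis was possible because each state and mark has 1 pooled list whose columns carry no replicate number, and leaving out a replicate was impossible for the same reason. Of 108 values under alternatives, 60 moved by more than their limits (1.5 times for counts, the 95% interval for shares). A gap of 1 kb gave 163 domains (61 ASC only, 39 QSC only, 63 both), 297 genes and H3K4me3 at 27.3% of genes in QSC and 38.05% in ASC; 5 kb gave 956 domains (196 QSC only, 510 both) and 1962 genes. A length of 50 kb gave 1779 domains (509 ASC only, 316 QSC only, 954 both), 2787 genes and an H3K4me3 peak in 33.2% and 44.3% of domains; 200 kb gave 118 (40 ASC only, 39 QSC only, 39 both), 314 genes, 47.5% and 62.7%. Broad peaks of −log10 q at least 1.3 gave 201 domains (95 ASC only, 23 QSC only, 83 both), 418 genes, H3K4me3 in ASC at 34.7% of genes and in 57.2% of domains. H3K27me3 narrow peaks gave 22 domains (7 ASC only, 8 QSC only, 7 both), 58 genes, H3K4me3 at 18.97% of genes in QSC and 25.9% in ASC and in 31.8% of domains in QSC. Genes wholly inside left 318 domains (92 ASC only, 50 QSC only), 719 genes, 15.02% and 21.8% of genes and 44.3% and 59.1% of domains. H3K4me3 peaks of −log10 q at least 5 lay in 33.6% of domains in QSC and left 7 genes called in QSC only. Broad H3K4me3 lists put QSC above ASC, with 50.8% and 46.1% of genes, 99.6% and 81.9% of domains and 121 genes called in QSC only. Chosen after seeing the data, counting only starts inside a domain gave 19.4% and 27.3% of genes, and equal numbers of H3K4me3 peaks gave 27.7% of genes and 43.1% of domains in ASC and 60 genes called in ASC only. The cause of these shifts was not tested. Equal covered bases of H3K27me3 moved no value beyond its limit, but brought the single-state counts closer together, at 146 domains in ASC only and 125 in QSC only, with 251 in both.

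The number of domains thus depends on gap, length and peak threshold, and in each of these settings of the H3K27me3 lists the H3K4me3 shares stayed higher in ASC. Read depth is unknown, and no limit of detection was set for a gene without a peak.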

Other observations

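Other gene records lay in the domains beside the coding genes. Of 12727 long noncoding RNA records 974 overlapped a domain (7.65%), of 1228 microRNA records 39 (3.18%) and of 9944 pseudogenes 286 (2.88%), against 5.21% of coding genes. The microRNAs included Mir10a and Mir196a-1, which lie among the Hoxb genes, Mir10b of the Hoxd cluster, and the neural Mir124a-3, Mir9-3 and Mir218-2; all were picked after their places were seen. Complement genes C1qa, C1qb and C1qc, expressed by macrophages, shared a domain of 375 kb with Ephb2, covered over 98.1% in QSC and 96.5% in ASC, and the T cell genes Cd3d, Cd3e and Cd3g one of 331 kb covered over 95.04% and 96.4%. A vomeronasal receptor cluster of 5 genes on chromosome 6 was covered over 19.4% of 167 kb in QSC and 93.1% in ASC. No base of it was under a peak with a q-value of at most 0.05 in either state. The 156 kb domain on chromosome 4 with a group of interferon alpha genes had H3K4me3 over 553 bp in QSC and 7043 bp in ASC. Those bases were counted over the whole domain, not at the interferon genes.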
